A study of Mus with 9 samples.

Results

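The D-type cyclins and their kinase partners are encoded by 5 genes, Ccnd1, Ccnd2, Ccnd3, Cdk4 and Cdk6, and their RNA was followed across 9 libraries of mouse bone marrow cells. They were selected by gene symbol in a table of 54532 genes, in which each symbol occurred once. All 5 passed the filter on low counts that left 15660 genes for testing. D-type cyclins couple growth factor signals to the cell cycle. They rise when cells are stimulated, bind CDK4 or CDK6, and the complexes phosphorylate the retinoblastoma protein RB, which frees E2F transcription factors to switch on genes of S phase. In blood-forming cells the 3 cyclins overlap in function, and cyclin D2 and D3 with CDK6 are known for their part in progenitor and lymphoid proliferation.

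Per the study's design text and sample titles, 3 libraries each came from marrow labelled CCND2mut, CCND2wt and Vec. In all 9 the transplanted cells were fetal liver cells of embryonic day 12.5 from a conditional knock-in mouse. The allele encodes AML1-ETO, a leukaemia fusion protein also called RUNX1-RUNX1T1, tagged with mCherry. The cells had been infected with the retroviral vector MSCV-IRES-EGFP carrying cyclin D2 with Thr280Ala (CCND2mut), cyclin D2 without that change (CCND2wt) or no insert (Vec). Sorted mCherry+ GFP+ cells were given with supportive cells to lethally irradiated C57BL/6 mice. Thr280 lies in the carboxy-terminal degradation signal of cyclin D2, whose phosphorylation by GSK3 marks the protein for turnover. The driver of the conditional allele, the time of harvest, and any sorting of the sequenced marrow are not stated in these sources, so that supportive or host cells may be among the cells measured. Vec carries AML1-ETO too, and no group without the fusion was analysed here.

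Levels are given as normalised counts (CPM), which are counts scaled by the library total of the tested genes, adjusted by edgeR's TMM normalisation factor. On this scale 1 count corresponded to 0.0529 to 0.0679 CPM. Total counts were 15043755 to 17593634 per library. Mean values are given ± SD over 3 libraries, and fold changes are log2 values with their standard error (SE) from an edgeR quasi-likelihood fit. A gene is said to have risen or fallen where its p, adjusted over all 15660 genes by the Benjamini-Hochberg method, was under 0.05. The labels do not say that libraries of a group came from separate mice, so that p-values measure the spread between these libraries, which may be technical. In bulk RNA, fewer cells of a type and less RNA per cell cannot be told apart.

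Some libraries stood apart from the rest. The 3 CCND2wt libraries differed little from one another, with a chi-square of counts per degree of freedom of 6.999 to 17.7, against 72.9 to 148 within CCND2mut and 53.3 to 117 within Vec. With these 3 summed to 1 sample, edgeR called 0 of the 5 genes in the comparisons that involve CCND2wt (6 had an unadjusted p under 0.05). In the fit over 9 libraries it had made 7 such calls. Haemoglobin genes took 1.51% of counts in Vec 1 and at most 0.356% elsewhere. The X-inactivation transcript Xist stood at 4.31 to 11.8 CPM in CCND2mut, 2111 to 2305 CPM in CCND2wt and 10.7 to 879 CPM in Vec, and the Y-linked Ddx3y at 27.4, 0 and 0 CPM in CCND2mut 1, 2 and 3, 0.605 to 0.635 CPM in CCND2wt and 64.5 to 318 CPM in Vec. CCND2mut 1 thus differed from the rest of its group in Ddx3y as well as in Ccnd2. None of the 5 genes is sex-linked. Xist was higher in each CCND2wt library than in any library of the other groups, and Ddx3y was so in each Vec library. The part of the sex or origin of the cells in the levels of the 5 genes was not tested and cannot be told apart from the group.

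Blood cell markers were present throughout, and the mix of lineages differed between groups. The summed level of 5 general blood cell markers (5 of 5 counted in every library) was 2446 to 3903 CPM in CCND2mut, 1339 to 1386 CPM in CCND2wt and 2207 to 2502 CPM in Vec. The sum of 8 stem and progenitor markers was 497 to 1316 CPM in CCND2mut, 2637 to 2721 CPM in CCND2wt and 1838 to 2488 CPM in Vec. Hoxa9 was at 0 in 1 CCND2mut library, and Mecom was at 0 in 2 CCND2mut libraries and in 1 CCND2wt library. The 8 neutrophil markers summed to 17941 CPM in CCND2mut 1, 2725 CPM in CCND2mut 2 and 3795 CPM in CCND2mut 3, to 129 to 234 CPM in CCND2wt, and to 13644 CPM in Vec 1 against 458 and 546 CPM in Vec 2 and Vec 4. Monocyte and macrophage markers summed to 1076 to 4286 CPM in CCND2mut, 40.01 to 41.4 CPM in CCND2wt and 44.4 to 294 CPM in Vec. Mast cell and basophil markers summed to 1696 to 15506 CPM in CCND2mut, 16867 to 17665 CPM in CCND2wt and 7287 to 10173 CPM in Vec.

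The lymphoid and platelet markers were lower in level. B cell markers summed to 5.11 to 15.1 CPM in CCND2mut, 21.1 to 24.2 CPM in CCND2wt and 45.0 to 304 CPM in Vec. Pax5 and Ebf1 were among the B cell markers at 0 in at least 1 CCND2mut library, and Igll1 was at 0 in 1 library each of CCND2mut and CCND2wt. T and NK cell markers summed to 34.8 to 55.0 CPM in CCND2mut, 21.5 to 24.97 CPM in CCND2wt and 26.3 to 62.5 CPM in Vec, mostly from Nkg7. Erythroid markers summed to 71.9 to 190 CPM in CCND2mut, 1197 to 1255 CPM in CCND2wt and 899 to 9167 CPM in Vec. Megakaryocyte markers summed to 39.4 to 94.7 CPM in CCND2mut, 326 to 339 CPM in CCND2wt and 348 to 435 CPM in Vec. The part of these lineage differences in the results on the cyclins and kinases was not tested.

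Ccnd2 encodes cyclin D2, the protein named in the labels, and is the gene whose level checks them. It lies on the minus strand of chromosome 6 (127125162 to 127152193, mm10; ENSMUSG00000000184). CCND2mut libraries 1, 2 and 3 held 208, 872 and 769 counts, or 12.6, 58.2 and 51.1 CPM. CCND2wt libraries 2, 3 and 4 held 138, 164 and 202 counts, or 7.30, 9.29 and 11.1 CPM. Vec libraries 1, 2 and 4 held 1263, 1164 and 1344 counts, or 76.2, 79.0 and 86.2 CPM. Every library labelled as carrying added cyclin D2 thus lay below every Vec library, against what those labels name. CCND2mut 1 lay close to the CCND2wt libraries and far from the other two of its group.

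Which species the added cyclin D2 came from is not stated, and reads of a foreign coding sequence may be missed when aligned to mouse Ccnd2. Directions below are therefore between libraries labelled CCND2mut, CCND2wt and Vec. Ccnd2 fell 8.72-fold in CCND2wt against Vec (log2 -3.12, SE 0.50, adjusted p = 0.00546). It was higher in CCND2mut than in CCND2wt (log2 2.14, SE 0.49, adjusted p = 0.00720). In CCND2mut against Vec the value was -0.99 (SE 0.46, 95% interval -2.05 to 0.07, adjusted p = 0.106). Without CCND2mut 1 it was -0.56 and passed the threshold (adjusted p = 0.0293). CCND2mut 1 was also the CCND2mut library with the most neutrophil marker RNA. Within Vec those markers were highest in Vec 1 (13644 CPM), where Ccnd2 stood at 76.2 CPM. Both the neutrophil markers and Ccnd2 were lowest in CCND2wt. The B cell markers were lower in both CCND2 groups than in Vec. The part of these lineages in the Ccnd2 level was not tested.

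Ccnd1 encodes cyclin D1, the D-type cyclin best known from epithelial cells and scarce in blood. It lies on chromosome 7 (144929931 to 144939925, minus strand, mm10; ENSMUSG00000070348). It was the lowest of the 5 genes in every library but had distinct levels in each group. CCND2mut libraries 1, 2 and 3 held 16, 15 and 11 counts (0.971, 1.00 and 0.731 CPM). CCND2wt libraries 2, 3 and 4 held 34, 33 and 24 counts (1.799, 1.87 and 1.32 CPM). Vec libraries 1, 2 and 4 held 82, 93 and 88 counts (4.95, 6.32 and 5.64 CPM). The 3 groups did not overlap, in the order CCND2mut, CCND2wt, Vec from low to high.

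Against Vec, Ccnd1 fell 6.25-fold in CCND2mut (log2 -2.64, SE 0.30, adjusted p = 0.000204) and 3.39-fold in CCND2wt (-1.76, SE 0.28, adjusted p = 0.00503). The 42 counts summed over CCND2mut gave 0.903 CPM with an exact Poisson 95% interval of 0.651 to 1.22, and the 263 of Vec gave 5.61 CPM (4.95 to 6.33). These intervals cover counting error only. The difference between CCND2mut and CCND2wt was -0.88 (SE 0.29, adjusted p = 0.0355). That last call was lost without CCND2mut 1, CCND2mut 3, CCND2wt 2 or CCND2wt 3 (edgeR adjusted p = 0.0524, 0.1003, 0.110 and 0.113).

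Ccnd3 encodes cyclin D3, the D-type cyclin of maturing lymphoid and erythroid cells. It had the most counts of the 3 cyclins in all 9 libraries. It lies on chromosome 17 (47505051 to 47599691, plus strand, mm10; ENSMUSG00000034165). It stood at 96.6, 108 and 122 CPM in CCND2mut 1, 2 and 3 and at 102, 110 and 121 CPM in CCND2wt 2, 3 and 4. In Vec 1, 2 and 4 it stood at 207, 132 and 144 CPM. Both CCND2 groups spanned nearly the same range and lay below Vec, with Vec 1 the highest library.

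In CCND2mut libraries Ccnd3 fell relative to Vec (-0.57, SE 0.18, adjusted p = 0.0270). The value for CCND2wt relative to Vec was -0.54 (SE 0.18, adjusted p = 0.0658), and -0.29 without Vec 1. Vec 1 also held the most erythroid, B cell, and T and NK cell marker RNA of all libraries. Within Vec it held the most neutrophil and monocyte marker RNA too. Without Vec 1 the CCND2mut value was -0.34 and did not pass (adjusted p = 0.0683). It did not pass without CCND2mut 1 or CCND2mut 2 either (edgeR adjusted p = 0.0732 and 0.0619). Between CCND2mut and CCND2wt the difference was -0.02, with a 95% interval of -0.43 to 0.38. It was 0.05 without CCND2mut 1 and 0.03 without CCND2wt 4.

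Cdk4 encodes the cyclin-dependent kinase that all 3 D-type cyclins bind. It lies on chromosome 10 (127063534 to 127067920, plus strand, mm10; ENSMUSG00000006728). Its level was 259, 199 and 243 CPM in CCND2mut 1, 2 and 3. It was 322, 319 and 346 CPM in CCND2wt 2, 3 and 4, and 199.7, 209 and 233 CPM in Vec 1, 2 and 4. Every CCND2wt library lay above the other 6 libraries, whose 2 groups overlapped.

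Cdk4 was the only one of the 5 genes to rise in CCND2wt against Vec (0.62, SE 0.13, adjusted p = 0.0123), a 1.54-fold difference. It fell in CCND2mut against CCND2wt (-0.49, SE 0.12, adjusted p = 0.0112), and the value in CCND2mut against Vec was 0.13 (95% interval -0.16 to 0.41, adjusted p = 0.419). The rise in CCND2wt was not called without CCND2wt 2 or CCND2wt 4 (edgeR adjusted p = 0.0512 and 0.0607), with values of 0.64 and 0.59.

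Cdk6 encodes the second D-cyclin kinase, which is prominent in blood progenitors and, apart from its kinase role, is known to act with transcription factors. It lies on chromosome 5 (3341485 to 3531008, plus strand, mm10; ENSMUSG00000040274). It stood at 416, 223 and 358 CPM in CCND2mut 1, 2 and 3 and at 1048, 1012 and 962 CPM in CCND2wt 2, 3 and 4. In Vec 1, 2 and 4 it stood at 862, 1668 and 1418 CPM. The CCND2mut libraries lay below all others, while CCND2wt fell within the range of Vec.

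Cdk6 fell 3.96-fold in CCND2mut against Vec (-1.98, SE 0.29, adjusted p = 0.000685) and 3.03-fold in CCND2mut against CCND2wt (-1.60, SE 0.28, adjusted p = 0.00201). In CCND2wt against Vec the value was -0.39 (95% interval -1.02 to 0.25, edgeR adjusted p = 0.356), and it was -0.59 without Vec 1 and -0.16 without Vec 2. The summed stem and progenitor markers, all 8 of them counted in Vec, were also below the other groups in each CCND2mut library. Within CCND2mut the order was not the same, as that sum was highest in CCND2mut 2 (1316 CPM), where Cdk6 was lowest. The part of these markers in the Cdk6 level was not tested.

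**Figure D1:**
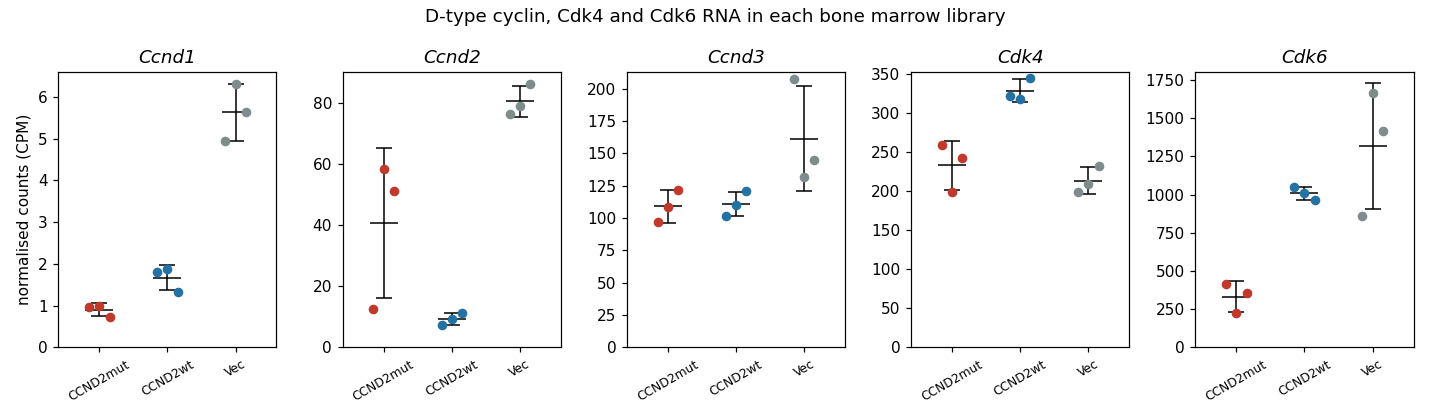
Normalised counts (CPM, linear axes from 0) of the 5 genes in each library of CCND2mut, CCND2wt and Vec. Points are libraries, bars are the mean ± SD (n = 3). Ccnd2 is spread from 12.6 to 58.2 CPM in CCND2mut, Cdk4 is highest in CCND2wt, and Cdk6 is lowest in CCND2mut at 223 to 416 CPM.

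The calls among the 5 genes are set here beside those among all genes, and with 5 genes each call weighs heavily in a share. In CCND2mut against Vec, 3 of 5 fell and 0 rose, where 51.8% of all 15660 genes passed, 24.9% higher and 26.9% lower. Of the 5 genes, 0 lay higher and 4 lower in CCND2mut than in Vec without overlap of the groups, against 56.7% of all genes in either direction (27.4% higher, 29.2% lower). In CCND2wt against Vec, 2 fell and 1 rose, where 18.8% of all genes passed, 9.05% lower and 9.71% higher. Groups did not overlap for 1 gene that lay higher and 3 that lay lower in CCND2wt than in Vec, against 48.3% of all genes (24.6% higher, 23.7% lower). In CCND2mut against CCND2wt, 3 fell and 1 rose, where 47% of all genes passed, 23.2% higher and 23.8% lower. Groups did not overlap for 1 gene that lay higher and 3 that lay lower in CCND2mut than in CCND2wt, against 63.1% of all genes (30.9% higher, 32.2% lower). The median log2 fold change of the 5 genes was -0.99, -0.54 and -0.49 in these 3 comparisons, and that of all tested genes was -0.03, -0.04 and 0.02. The comparisons share libraries, so that their values are not independent.

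**Figure D2:**
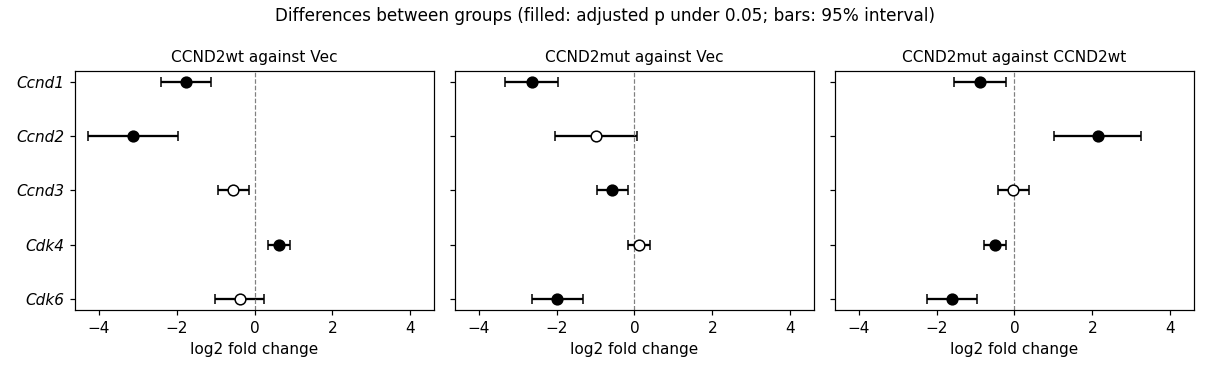
Log2 fold changes of the 5 genes in the 3 comparisons from the edgeR fit, with 95% intervals. Filled points passed an adjusted p of 0.05. Ccnd1 is below 0 in all 3 panels, and Ccnd2 lies at -3.12 in CCND2wt against Vec and at 2.14 in CCND2mut against CCND2wt.

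Levels of different genes were compared per kilobase of the deposited gene length (CPM per kb), which is 4.709 kb for Ccnd1, 9.409 kb for Ccnd2, 8.775 kb for Ccnd3, 3.249 kb for Cdk4 and 13.989 kb for Cdk6. If the added cyclin D2 was of another species, its reads may be missing from Ccnd2 and from the cyclin sums and shares. On this scale the counted cyclins kept the order Ccnd3, Ccnd2, Ccnd1 in all 9 libraries. Ccnd3 made up 74.9% ± 11.4 of the D-type cyclin sum in CCND2mut, 90.4% ± 0.451 in CCND2wt and 64.7% ± 6.41 in Vec. Ccnd2 made up 10.7%, 33.1% and 27.9% in CCND2mut 1, 2 and 3, 6.08%, 7.11% and 7.77% in CCND2wt 2, 3 and 4, and 24.7%, 33.9% and 34.1% in Vec 1, 2 and 4. The Ccnd2 share was thus lower in CCND2wt than in either other group without overlap, while CCND2mut and Vec overlapped. Exact two-sided permutation tests gave p = 0.1 for CCND2wt against Vec and for CCND2mut against CCND2wt. That is the smallest p that 3 against 3 libraries allow. The same exact permutation test gave p = 0.5 for CCND2mut against Vec.

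The summed cyclins per length came to 16.9 ± 3.79 CPM per kb in CCND2mut, 13.95 ± 1.22 in CCND2wt and 28.1 ± 4.17 in Vec, and neither CCND2 group overlapped Vec (exact permutation p = 0.1 each, two-sided). The 2 kinases together came to 95.7 ± 16.7 CPM per kb in CCND2mut, 173 ± 2.50 in CCND2wt and 160 ± 32.3 in Vec. The kinase that led per length also differed. Cdk6 made up 20.7% to 27.1% of the kinase sum in CCND2mut, 39.3% to 43.0% in CCND2wt and 50.1% to 64.9% in Vec, with no overlap between any of the groups. Cdk4 was thus the higher kinase per length in all 6 libraries of the CCND2 groups, and Cdk6 in Vec 2 and Vec 4, with Vec 1 near equality. That change of lead depends on the division by length. Without it, Cdk6 had more counts than Cdk4 in all 9 libraries.

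The kinase RNA exceeded the counted cyclin RNA per length in every library. Any reads of added cyclin D2 that were missed would be absent from that cyclin sum. The ratio of the cyclin sum to the kinase sum was 0.184 ± 0.0646 in CCND2mut, 0.0805 ± 0.00677 in CCND2wt and 0.185 ± 0.0708 in Vec. It was lower in CCND2wt than in both others without overlap (exact permutation p = 0.1 each, two-sided), and the CCND2mut and Vec ranges overlapped. Without division by length the mean ratios were 0.283 in CCND2mut, 0.0911 in CCND2wt and 0.177 in Vec. Among the 15660 tested genes, Cdk4 stood at the 93.9 to 97.8 percentile of level per length and Cdk6 at the 76.9 to 97.6 percentile. Ccnd3 stood at the 68.7 to 85.1 percentile, Ccnd2 at the 20.4 to 65.9 percentile and Ccnd1 at the 10.7 to 28.1 percentile. RNA levels say nothing of the amount of each protein.

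**Figure D3:**
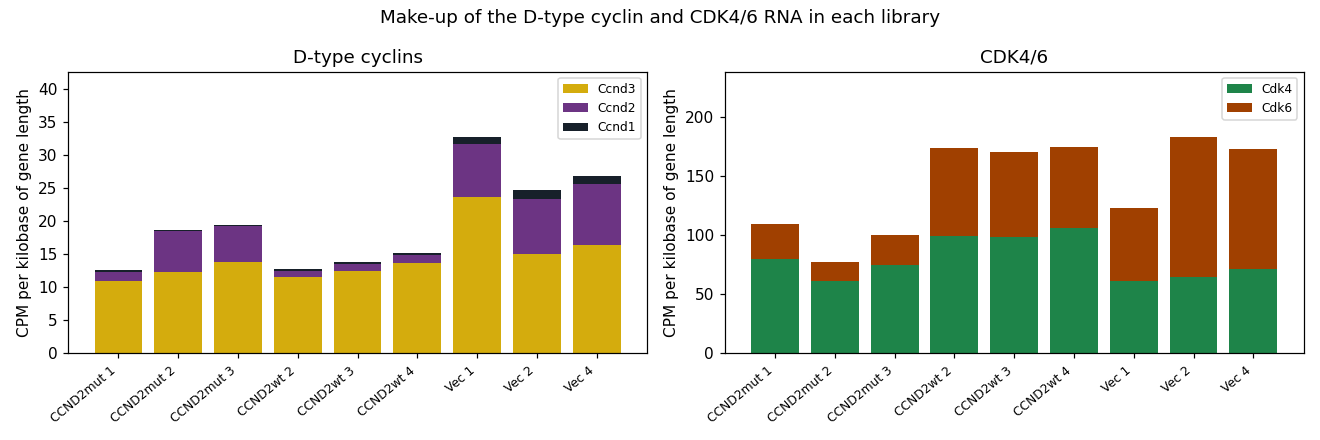
Stacked levels per kilobase of gene length (CPM per kb) of the 3 D-type cyclins (left) and of Cdk4 and Cdk6 (right) in each library. Ccnd2 is a thin band in the CCND2wt libraries (6.08% to 7.77% of the cyclin sum) and in CCND2mut 1 (10.7%), and Cdk6 takes 20.7% to 27.1% of the kinase sum in CCND2mut.

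The 5 genes lie on 5 chromosomes, and each overlaps at least 1 annotated gene on the opposite strand. No source used here states the strand setting of the counting, so that reads in those stretches cannot be assigned to 1 gene with certainty. Ccnd1 shares 1771 bases with Oraov1, a gene of ribosome assembly known from oral cancers, which stood at 14.5 to 23.4 CPM in CCND2mut, 19.999 to 23.6 CPM in CCND2wt and 11.9 to 15.8 CPM in Vec. Oraov1 rose in CCND2wt against Vec (0.74, SE 0.21, adjusted p = 0.0445), whereas Ccnd1 fell. Ccnd3 shares 361 bases with Bysl, a ribosome assembly gene that rose in CCND2mut against Vec (1.03, SE 0.18, adjusted p = 0.00170), whereas Ccnd3 fell. Cdk4 shares 641 bases with the tetraspanin gene Tspan31, which did not pass in any comparison. Within Cdk6, the antisense gene Gm17590 stood at 0.364 to 0.467 CPM in CCND2mut, 1.87 to 2.43 CPM in CCND2wt and 1.87 to 4.48 CPM in Vec. It fell with Cdk6 in CCND2mut against Vec (-2.86, SE 0.42, adjusted p = 0.000719). The antisense gene 9330179D12Rik at the start of Ccnd2 averaged 0.279 CPM in CCND2mut, 0 CPM in CCND2wt and 0.539 CPM in Vec and was not tested.

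Of the 8 tested protein-coding genes nearest to the 5 on either side, 3 passed in at least 1 comparison. Tigar, a fructose bisphosphatase that is known to respond to p53, lies 15.6 kb from Ccnd2 on the same strand. It stood at 43.9, 15.6 and 29.4 CPM in CCND2mut 1, 2 and 3, at 2.06, 3.29 and 3.797 CPM in CCND2wt 2, 3 and 4, and at 6.10, 3.26 and 6.92 CPM in Vec 1, 2 and 4. It rose in CCND2mut against Vec (2.45, SE 0.44, adjusted p = 0.00208) and against CCND2wt (3.28, SE 0.46, adjusted p = 0.000615), with CCND2mut 1 highest, where Ccnd2 was lowest of its group. Parp11, on the other side of Ccnd2, did not pass in any comparison, nor did Tpcn2 near Ccnd1 or Taf8 and Med20 beside Ccnd3. Agap2, a GTPase-activating protein gene 7.36 kb from Cdk4, fell relative to Vec in CCND2mut (-1.22, SE 0.09, adjusted p = 3.71e-05) and in CCND2wt (-0.66, SE 0.09, adjusted p = 0.00280), unlike Cdk4. Fam133b, 12.8 kb beyond Cdk6, fell in CCND2mut against Vec by 0.72 on the log2 scale (SE 0.22, adjusted p = 0.0239), as Cdk6 did.

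Genes with the most similar profiles were found among the 10244 protein-coding genes that averaged 5 CPM or more, by the root mean square difference of centred log2(CPM + 1) values over the 9 libraries. For Cdk4 these were Bcas2 (0.10), Pola2 (0.10) and Nsd2 (0.11). For Ccnd3 they were Mtfr1 (0.11), Nmnat3 (0.12) and Zfp386 (0.14), and for Ccnd1 they were Wdr13 (0.16), Kctd1 (0.18) and Tmem150a (0.18). At the low level of Ccnd1 the added 1 shrinks its changes, so that its distances are not comparable with the others. In the fit of CCND2mut against Vec, Ccnd1 stood at -2.64, Wdr13 at -1.65, Kctd1 at -1.88 and Tmem150a at -1.65. Csad (0.21), Ripor3 (0.22) and Ago1 (0.22) were nearest to Cdk6. For Ccnd2 the nearest genes lay much farther off, Il12rb1 at 0.58, Pde10a at 0.59 and Ckb at 0.61. Among the 5 genes themselves the smallest distance was that of Ccnd3 and Cdk4 (0.52) and the largest that of Ccnd2 and Cdk6 (1.66). A small distance can come from small changes and does not mean a shared direction. In CCND2wt against Vec, Ccnd3 stood at -0.54 and Cdk4 at 0.62.

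The inhibitors of the cyclin D kinases come in an INK4 family, which binds CDK4 and CDK6, and a CIP/KIP family. The share of all tested genes that passed in the 3 comparisons, to be read beside each list's count, was 51.8% in CCND2mut against Vec, 18.8% in CCND2wt against Vec and 47% in CCND2mut against CCND2wt. Of 7 inhibitor genes, 2 rose and 0 fell in CCND2mut against Vec, 3 rose and 0 fell in CCND2wt against Vec, and 2 rose and 1 fell in CCND2mut against CCND2wt, which is 28.6%, 42.9% and 42.9% of the list. Cdkn2a, which encodes p16INK4A and ARF, stood at 8.92, 14.7 and 36.7 CPM in CCND2mut 1, 2 and 3, at 17.9, 19.8 and 21.7 CPM in CCND2wt 2, 3 and 4, and at 0.181, 0.0679 and 0 CPM in Vec 1, 2 and 4. It rose in both CCND2 groups against Vec (adjusted p = 0.000167 in CCND2mut and 0.00117 in CCND2wt). Its neighbour Cdkn2b (p15INK4B) had 244 counts in CCND2mut, 44 in CCND2wt and 2 in Vec. That is a ratio of 123 to Vec for CCND2mut (95% counting interval 33.7 to 1022) and of 18.9 for CCND2wt (4.92 to 161). Cdkn2c (p18INK4C) rose in CCND2wt against Vec (1.76, SE 0.43, adjusted p = 0.0259), where Cdk4 rose too. Cdkn1a (p21) was higher in CCND2mut than in CCND2wt (1.97, SE 0.53, adjusted p = 0.0159).

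The pocket proteins are the substrates of the cyclin D kinases. Rb1 itself stood at 45.2 to 61.8 CPM in CCND2mut, 41.4 to 50.02 CPM in CCND2wt and 31.5 to 68.1 CPM in Vec, and did not pass in any comparison. Its relative Rbl1 (p107) rose in CCND2mut (1.05, SE 0.18, adjusted p = 0.00181) and in CCND2wt (1.52, SE 0.19, adjusted p = 0.00188) against Vec. Rbl2 (p130), the pocket protein of resting cells, fell in CCND2mut relative to Vec (-0.40, SE 0.13, adjusted p = 0.0332).

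In the whole list of 13 RB and E2F genes, 7 rose and 3 fell in CCND2mut against Vec, 5 rose and 0 fell in CCND2wt against Vec, and 2 rose and 1 fell in CCND2mut against CCND2wt. E2f1, an activator of S-phase genes, stood at 101, 52.0 and 74.7 CPM in CCND2mut 1, 2 and 3, at 94.8, 96.9 and 86.9 CPM in CCND2wt 2, 3 and 4, and at 38.4, 29.7 and 30.3 CPM in Vec 1, 2 and 4. It was higher in every library of both CCND2 groups than in Vec and rose in both (1.21, adjusted p = 0.00238 in CCND2mut, and 1.502, adjusted p = 0.00405 in CCND2wt). The repressors E2f7 and E2f8 also rose in both groups. E2f5, which works with p130, fell in CCND2mut relative to Vec (-2.27, SE 0.22, adjusted p = 0.000101).

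The summed D-type cyclin RNA counted at the mouse genes was lower in both CCND2 groups than in Vec. Genes that E2F factors switch on in S phase were mostly higher there. Of 15 such genes, 13 rose and 1 fell in CCND2mut against Vec, with a median log2 fold change of 1.304. In CCND2wt against Vec 12 rose and 0 fell, with a median of 1.08. Between CCND2mut and CCND2wt 2 rose and 2 fell, with a median of 0.08. Mcm2, a subunit of the replicative helicase, stood at 424, 335 and 424 CPM in CCND2mut 1, 2 and 3, at 299.98, 276 and 295 CPM in CCND2wt 2, 3 and 4, and at 133, 90.7 and 113 CPM in Vec 1, 2 and 4. Tyms, which makes thymidylate, rose in CCND2mut (1.65, SE 0.27, adjusted p = 0.00124) and in CCND2wt (2.10, SE 0.27, adjusted p = 0.00236) against Vec. Pcna, the sliding clamp of DNA polymerases, was the member that fell in CCND2mut (-0.39, SE 0.12, adjusted p = 0.0240). With the CCND2wt libraries summed to 1 sample, the CCND2wt against Vec median was 1.11, edgeR called 0 of the 15, and 11 had an unadjusted p under 0.05.

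Downstream of the D-type cyclins, the list of cyclins E, A and B, CDK1, CDK2 and CDC25 phosphatases had 10 tested genes of 11. In CCND2mut against Vec 7 rose and 0 fell, and in CCND2wt against Vec 2 rose and 0 fell, Cdk1 and the phosphatase gene Cdc25c. Without Vec 1, 8 rose in CCND2wt against Vec, and neither passed with the CCND2wt libraries summed to 1 sample. In CCND2mut against CCND2wt edgeR called 0 of 10 (0 with an unadjusted p under 0.05), and 1 without Vec 1 and CCND2mut 1. Cdk1, the mitotic kinase, rose by 1.97 on the log2 scale in CCND2mut (SE 0.35, adjusted p = 0.00220) and by 1.70 in CCND2wt (SE 0.35, adjusted p = 0.0143) against Vec. Cdk2, the partner of cyclins E and A, stood at 0.09 in CCND2mut and 0.18 in CCND2wt against Vec on the log2 scale and did not pass.

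**Figure D4:**
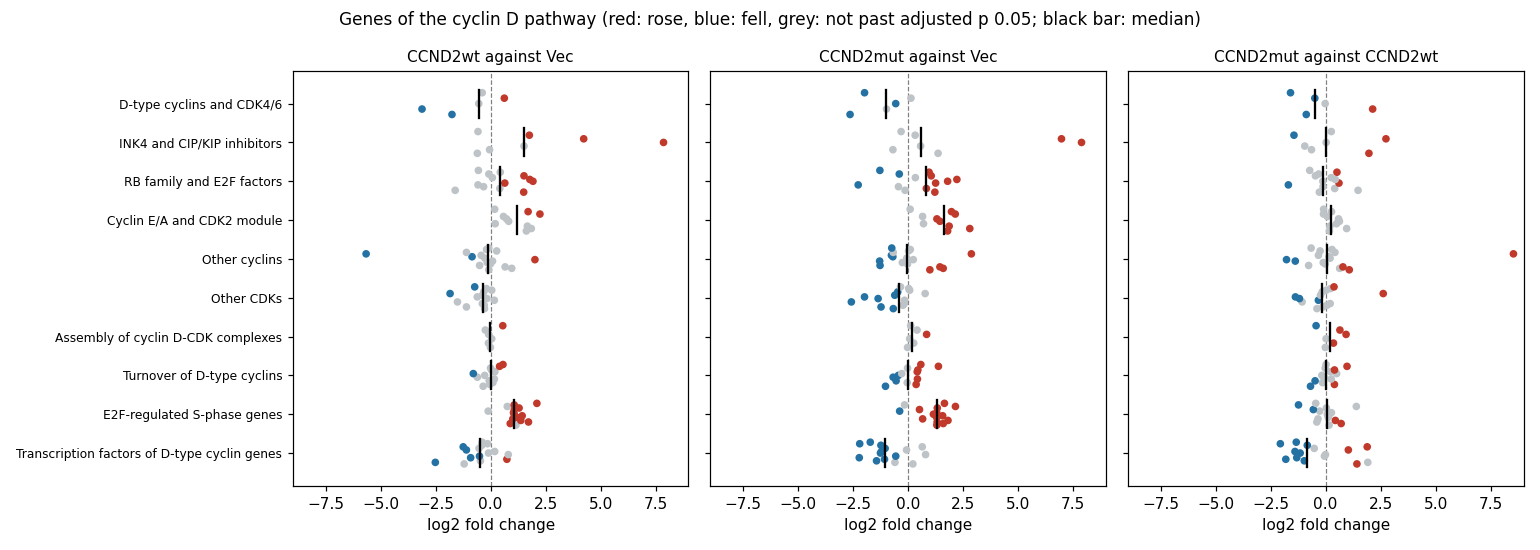
Log2 fold changes of tested genes in 10 lists around the cyclin D pathway, 1 point per gene, for the 3 comparisons. Red points rose, blue points fell, grey points did not pass an adjusted p of 0.05, and black bars are list medians. The E2F-regulated S-phase genes lie right of 0 against Vec, with medians of 1.304 in CCND2mut and 1.08 in CCND2wt.

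Cyclin D protein is turned over after phosphorylation of the carboxy-terminal threonine by GSK3 and ubiquitination, for which the AMBRA1-DDB1-CUL4 ligase is the best known. Of 13 tested turnover genes, 6 rose and 4 fell in CCND2mut against Vec, 2 rose and 1 fell in CCND2wt against Vec, and 3 rose and 2 fell in CCND2mut against CCND2wt. Ambra1, the substrate receptor, stood at 32.4, 34.0 and 25.6 CPM in CCND2mut 1, 2 and 3, at 50.9, 46.3 and 51.4 CPM in CCND2wt 2, 3 and 4, and at 55.3, 71.3 and 61.8 CPM in Vec 1, 2 and 4. The groups did not overlap, and Ambra1 fell in CCND2mut relative to Vec (-1.03, SE 0.14, adjusted p = 0.000571) and against CCND2wt (-0.69, SE 0.14, adjusted p = 0.00441). The ring finger subunit Rbx1 moved the other way, with a rise of 1.38 in CCND2mut against Vec (SE 0.11, adjusted p = 4.23e-05).

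Ambra1 and Rbx1 held the lowest and highest log2 values of the 13 tested turnover genes when CCND2mut was compared with Vec. When CCND2wt was compared with Vec, the list ran from -0.79 to 0.56. Not every gene of the list is named here. Ddb1, the adaptor, rose by 0.42 in CCND2mut against Vec (SE 0.10, adjusted p = 0.00919), and the scaffold gene Cul4b fell by 0.55 (SE 0.09, adjusted p = 0.00159). Cul4a did not pass in any comparison. Of the 2 GSK3 genes, Gsk3a rose in CCND2mut against Vec (0.44, SE 0.11, adjusted p = 0.00959), and Gsk3b had values of -0.03 in CCND2mut and -0.01 in CCND2wt against Vec (SE 0.12 each) and did not pass in any comparison.

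Assembly of the complexes uses the chaperone HSP90 with CDC37, and activation uses the kinase CDK7 with cyclin H and MNAT1. Of these 6 genes, 1 rose in CCND2mut against Vec (Hsp90aa1, 0.84, SE 0.26, adjusted p = 0.0241) and 1 rose in CCND2wt against Vec (Mnat1, 0.55, SE 0.13, adjusted p = 0.0235). Between CCND2mut and CCND2wt, Hsp90aa1, Hsp90ab1 and Cdc37 rose and Mnat1 fell. Cdk7 and Ccnh did not pass in any of the comparisons, and their values lay between -0.03 and 0.07 on the log2 scale.

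Among 15 tested transcription factors known to act on D-type cyclin genes, 10 fell and 0 rose in CCND2mut against Vec, with a median of -1.08. In CCND2wt against Vec 5 fell and 1 rose, with a median of -0.47, and in CCND2mut against CCND2wt 8 fell and 3 rose. Stat5a and Stat5b carry cytokine signals and are known activators of Ccnd2 and Ccnd1. Stat5a stood at 86.2, 64.0 and 54.3 CPM in CCND2mut 1, 2 and 3, at 296, 263 and 294 CPM in CCND2wt 2, 3 and 4, and at 306, 280 and 356 CPM in Vec 1, 2 and 4. It fell in CCND2mut relative to Vec (-2.20, SE 0.18, adjusted p = 5.66e-05), as did Stat5b (-1.72, SE 0.17, adjusted p = 0.000114), and neither passed in CCND2wt against Vec. The part of these factors in the cyclin levels was not tested.

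Factors of both signs towards the cyclins were among those that moved. Relative to Vec, Foxo3, known to repress Ccnd1 and Ccnd2, fell in CCND2mut (-2.22, SE 0.14, adjusted p = 2.09e-05) and in CCND2wt (-0.91, SE 0.13, adjusted p = 0.00369). Myc, an activator of Ccnd2 and Cdk4 in other cells, fell in CCND2wt against Vec (-1.10, SE 0.26, adjusted p = 0.0219), where Cdk4 rose and Ccnd2 fell. Spi1 (PU.1) fell in CCND2wt against Vec (-1.25, SE 0.27, adjusted p = 0.0160), as Ccnd2 did. It was higher in CCND2mut than in CCND2wt (1.89, SE 0.27, adjusted p = 0.000743), again as Ccnd2 was. In CCND2mut against Vec the signs differed, with Spi1 at 0.64 (SE 0.26, edgeR adjusted p = 0.0715) and Ccnd2 at -0.99, and neither passed.

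The other cyclin and CDK genes passed about as often as all genes did in both comparisons with Vec. Of 16 other cyclins, 4 rose and 5 fell in CCND2mut against Vec, 1 rose and 2 fell in CCND2wt against Vec, and 3 rose and 2 fell in CCND2mut against CCND2wt, which is 56.2%, 18.8% and 31.2% of the list. Ccno, a cyclin known from multiciliated cells, had the widest range, at 76.9, 11.02 and 14.4 CPM in CCND2mut 1, 2 and 3, at most 0.170 CPM in CCND2wt, and 9.90, 3.12 and 0.898 CPM in Vec 1, 2 and 4. Ccng1, a p53 target, rose in CCND2mut against Vec (1.44, SE 0.24, adjusted p = 0.00124). Of 14 other tested CDK genes, 7 fell and 0 rose in CCND2mut against Vec, 2 fell and 0 rose in CCND2wt against Vec, and 2 rose and 3 fell in CCND2mut against CCND2wt, which is 50%, 14.3% and 35.7% of the list. Cdk17 (-1.37, SE 0.17, adjusted p = 0.000376) and Cdk18 (-1.99, SE 0.42, adjusted p = 0.00484), kinases outside the G1 machinery, fell in CCND2mut against Vec, as did Cdk6. The transcription kinase Cdk9 fell in CCND2wt against Vec (-0.73, SE 0.14, adjusted p = 0.00939).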

How the data were processed

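Mouse bone marrow RNA was measured in 9 libraries, 3 each of CCND2mut, CCND2wt and Vec. The authors deposited 1 table of raw, unnormalised read counts. Per the labels' protocols, RNA was extracted with TRIzol and libraries made with an NEBNext Ultra kit. The submitters' processing notes name CASAVA 1.8, fastp, HISAT2 2.0.5, featureCounts 1.5.0-p3, DESeq2 1.20.0 and mm10. Annotation release and strand setting were not given there. Gene lengths are those deposited by the authors with the counts. Samples were joined by title, and 0 count columns were left without a sample.

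Genes were filtered with filterByExpr (15660 of 54532 left) and scaled by TMM. They were fitted over all 9 libraries in edgeR 4.0.16 (R 4.3.3) with a robust quasi-likelihood test on 6 residual degrees of freedom. The test was run on simulated data for CCND2wt against Vec only, with independent libraries and the same spread for all genes. That simulation did not copy the closeness of the CCND2wt libraries or the share of genes that passed here. Alternatives used RLE, DESeq2 1.42.0, limma-voom (limma 3.58.1), other filters, only the groups compared, a replicate block, removal of haemoglobin, immunoglobulin and mitochondrial genes, and each library left out. The members, gene lists, marker lists and tests were chosen with earlier results of these data known. The text names up to 5 genes of each list per comparison, those with the smallest adjusted p among genes that passed, and the RB, GSK3 and AMBRA1-CUL4 genes whatever their result, with neighbours and the 3 most similar profiles for each gene. Pcna, Cdk2, Cdk7, Ccnh, Xist and Ddx3y were named outside that rule, after their values were seen.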

Additional observations from a re-analysis of the deposited data

How the results depend on the processing

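The 5 genes in 3 comparisons and the counts of all called genes were recomputed under each alternative. Ccnd1 and Cdk6 in CCND2mut against Vec kept their direction and their call in every alternative that gave a value, with log2 fold changes of -2.77 to -2.51 and -2.39 to -1.77. Ccnd1 gave no value under the stricter filter, which removed it. DESeq2 called Ccnd3 in CCND2wt against Vec (-0.54, adjusted p = 0.0376). Limma-voom called Ccnd2 in CCND2mut against Vec (-1.29, adjusted p = 0.0452) and did not call Ccnd1 in CCND2mut against CCND2wt (-0.85, adjusted p = 0.0583), nor did edgeR with no filter (-0.93, adjusted p = 0.112). A fit of only the groups compared did not call Ccnd3 in CCND2mut against Vec (-0.58, adjusted p = 0.0637).

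With the replicate block, 1636 rather than 2938 genes passed in CCND2wt against Vec. The block did not call Cdk4 in CCND2wt against Vec (0.63, edgeR adjusted p = 0.0520) or in CCND2mut against CCND2wt (-0.47, 0.0529), Ccnd3 in CCND2mut against Vec (-0.57, 0.0743) or Ccnd1 in CCND2mut against CCND2wt (-0.91, 0.109). The labels do not say that the numbers pair the libraries. Deviations of same-numbered libraries had correlations of -0.07 to 0.19, and 3 of 9 libraries correlated best with their own number. Of the 6 same-numbered pairs 2 were over 0.1, CCND2mut 1 with Vec 1 (0.19) and CCND2mut 2 with Vec 2 (0.15). Pairing by number was thus neither shown nor excluded.

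Leaving out 1 library gave -1.34 to -0.56 for Ccnd2 and -0.70 to -0.34 for Ccnd3 in CCND2mut against Vec. It gave 0.59 to 0.69 for Cdk4, -0.65 to -0.29 for Ccnd3, -0.59 to -0.16 for Cdk6 and 1019 to 3020 called genes in CCND2wt against Vec, the fewest without CCND2wt 4 (1044 without CCND2wt 2 and 1194 without CCND2wt 3). In CCND2mut against CCND2wt it gave -1.03 to -0.75 for Ccnd1 and -0.11 to 0.05 for Ccnd3, with 0.05 without CCND2mut 1 and 0.03 without CCND2wt 4.

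Further settings were added after the data were seen. With the CCND2wt libraries summed to 1 sample, whose spread is taken from the other groups, values against Vec were -1.73 for Ccnd1, -3.10 for Ccnd2 and 0.65 for Cdk4. Those of CCND2mut against CCND2wt were -0.91 for Ccnd1, 2.11 for Ccnd2, -0.52 for Cdk4 and -1.63 for Cdk6. None of these passed in edgeR (adjusted p = 0.0513 to 0.296, 6 of 7 with an unadjusted p under 0.05), and 39 and 2378 genes passed in all. Without Vec 1 and CCND2mut 1, 4470 genes passed in CCND2wt against Vec, Ccnd2 in CCND2mut against Vec was called (-0.58, adjusted p = 0.0318), Ccnd3 there was not (-0.25, 0.137), and in CCND2mut against CCND2wt Ccnd1 was not called (-0.95, 0.0554) and Ccnd3 stood at 0.0424. Without division by length, cyclins over kinases came to 0.283 in CCND2mut, 0.0911 in CCND2wt and 0.177 in Vec. The cause of these changes was not tested. Depth limits Ccnd1 most, with 11 to 93 counts per library.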
